A study of Mus musculus with 4 samples.

Results

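The regulators of oxidative metabolism in heart muscle were examined here as 10 genes, chosen by name as the PGC-1 coactivators (Ppargc1a, Ppargc1b), the fatty acid receptor gene Ppara, the estrogen-related receptors (Esrra, Esrrb, Esrrg), the regulators of mitochondrial DNA Nrf1 and Tfam, and 2 muscle regulators tied to them, Klf15 and Perm1. All 10 were found among the 43346 genes of the deposited table. RNA came from whole hearts of C57BL/6 mice at 6 weeks of age, 2 wild-type (WT) and 2 with PRMT1 removed from cardiomyocytes (PRMT1-cKO), and each heart was 1 library. PRMT1 is an enzyme that methylates arginine residues of proteins. The labels name neither the promoter that drives the deletion nor the alleles of the WT mice, and heart cells other than cardiomyocytes are not targeted in this model.

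The adult heart draws most of its energy from fatty acids, and this gene program is set by nuclear receptors and their coactivators. PGC-1α and PGC-1β do not bind DNA themselves; they bind to receptors such as PPARα, which switches on fatty acid uptake and oxidation, and to the estrogen-related receptors, which act on the citric acid cycle and the respiratory chain. Together with the factor NRF1 they also act on Tfam, the factor that packages and transcribes mitochondrial DNA. KLF15 is a cardiac factor of lipid and amino acid use, and PERM1 is a muscle protein induced by PGC-1 and ERR that in turn acts on ERR target genes.

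The promoters of the 4 members whose spliced RNA could be tested are shown here, and that of Ppargc1b is not among them. Each is a RefSeq window on GRCm38.p6 from 250 bases before to 50 bases after the annotated start, written 5′ to 3′ along the gene. Capitals mark the letters found by the motif search. They mark TGACGT, only a part of the cAMP response element, in Ppargc1a (chr5:51567676-51567975, minus strand). GCGCATGC of the NRF1 motif is marked in Ppara (chr15:85735526-85735825, plus strand, 2 overlapping matches) and in Esrra (chr19:6921759-6922058, minus strand). AAGGTCA of the ERR core is marked in Perm1 (chr4:156215677-156215976, plus strand).
Ppargc1a: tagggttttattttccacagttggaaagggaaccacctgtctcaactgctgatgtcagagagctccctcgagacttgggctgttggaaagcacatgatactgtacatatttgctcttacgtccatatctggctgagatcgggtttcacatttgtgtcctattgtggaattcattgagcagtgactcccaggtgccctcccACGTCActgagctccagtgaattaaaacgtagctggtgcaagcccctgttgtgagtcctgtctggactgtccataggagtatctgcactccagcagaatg
Ppara: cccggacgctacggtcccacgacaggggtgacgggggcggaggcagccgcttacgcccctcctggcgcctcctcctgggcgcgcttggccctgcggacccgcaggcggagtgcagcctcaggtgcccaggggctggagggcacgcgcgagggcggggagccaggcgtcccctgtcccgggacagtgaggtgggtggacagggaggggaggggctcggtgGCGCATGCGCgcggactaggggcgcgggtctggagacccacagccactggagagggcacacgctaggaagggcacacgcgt
Esrra: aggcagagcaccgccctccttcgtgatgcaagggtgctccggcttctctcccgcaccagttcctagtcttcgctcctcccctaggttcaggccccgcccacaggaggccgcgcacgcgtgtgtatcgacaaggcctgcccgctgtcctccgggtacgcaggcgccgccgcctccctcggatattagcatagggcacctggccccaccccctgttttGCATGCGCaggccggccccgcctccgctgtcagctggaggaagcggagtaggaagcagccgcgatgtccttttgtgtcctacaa
Perm1: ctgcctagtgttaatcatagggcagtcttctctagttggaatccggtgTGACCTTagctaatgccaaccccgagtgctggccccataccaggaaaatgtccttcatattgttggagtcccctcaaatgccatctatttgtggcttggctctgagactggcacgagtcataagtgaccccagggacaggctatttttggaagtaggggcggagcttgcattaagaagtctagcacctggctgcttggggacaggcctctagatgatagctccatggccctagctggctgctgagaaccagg
The match in Ppargc1a lay 50 to 45 bases before the start and reads on the opposite strand. In Ppara the NRF1 letters began 31 bases before the start, with a match on each strand. In Esrra they began 34 bases before the start and read on the opposite strand. The ERR core in Perm1 lay from -202 to -196 relative to the start, again on the opposite strand. Windows were found for 9 of the 10 members, 14 windows in all. Beyond the 4 windows shown, the ETS letters CCGGAAGT stood in Tfam from 47 bases before the start and the MEF2 letters CTATTTATA in the first Esrrg window from 22 bases before it. Both strands of all 32851 windows were searched. TGACGT was present in 7.51% of them, AAGGTCA in 4.72%, CCGGAAGT in 3.89%, GCGCATGC in 2.71% and CTATTTATA in 0.429%. The longer ERR element TCAAGGTCA, which contains the core, was in 0.423% of windows, and a direct repeat of AGGTCA with a spacer of 1 base was in 0.0396%; neither was in a window of a member. A match is a match of letters only and shows no binding.

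The deposited table gives gene reads, exon reads and intron reads for each library. Gene reads were the sum of exon and intron reads for all 43346 genes, and of 2605955 exon reads all but 29 crossed an exon junction. Exon reads are therefore reads of spliced RNA, and intron reads, as the table names them, are all other reads counted for a gene. Of 2588 single-exon genes 0 had exon reads and 4 had any gene read, so reads inside exons seem to be nearly absent from the table. How reads were counted is not described, and whether the intron reads of a gene with more exons hold reads from within exons was not tested. Libraries held between 18291730 and 25509854 gene reads and between 544891 and 764806 exon reads, with the exon share at 2.45 and 2.51% in WT, against 4.18 and 3.60% in PRMT1-cKO. A share of 72.0 and 73.4% of gene reads in WT, against 63.7 and 61.7% in PRMT1-cKO, fell in genes for which no exon is annotated. These shares differed with genotype, and their part in the results was not tested. A count of 3 reads was 3.92 to 5.51 CPM (counts per 1e6 library reads) of exon reads, which is the limit that a count of 0 allows and covers counting error only. Prmt1 itself had 33 and 18 gene reads in WT, against 33 and 44 in PRMT1-cKO with 0 exon reads in every library, so the table does not show the loss of its spliced RNA.

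In the PRMT1-cKO hearts 7 of the 10 members had fewer gene reads, 0 had more, and 3 did not pass the test. Both coactivator genes fell, as did Ppara, all of the estrogen-related receptor genes and Perm1, while Nrf1, Tfam and Klf15 did not pass. The test was edgeR's quasi-likelihood test over 13869 genes with a Benjamini-Hochberg adjusted p under 0.05. By the same rule 11.2% of the genes tested were lower and 11.5% higher. The count of 0 higher members was the same at an unadjusted p under 0.05 and with DESeq2. The median log2 change (PRMT1-cKO minus WT) over the members was -0.95, against 0.01 over all genes tested. In 8 members both PRMT1-cKO values lay below both WT values, which held for 29.0% of all genes tested. The count of 7 became 4 without WT replicate 1 and 5 without WT replicate 2.

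**Figure D1:**
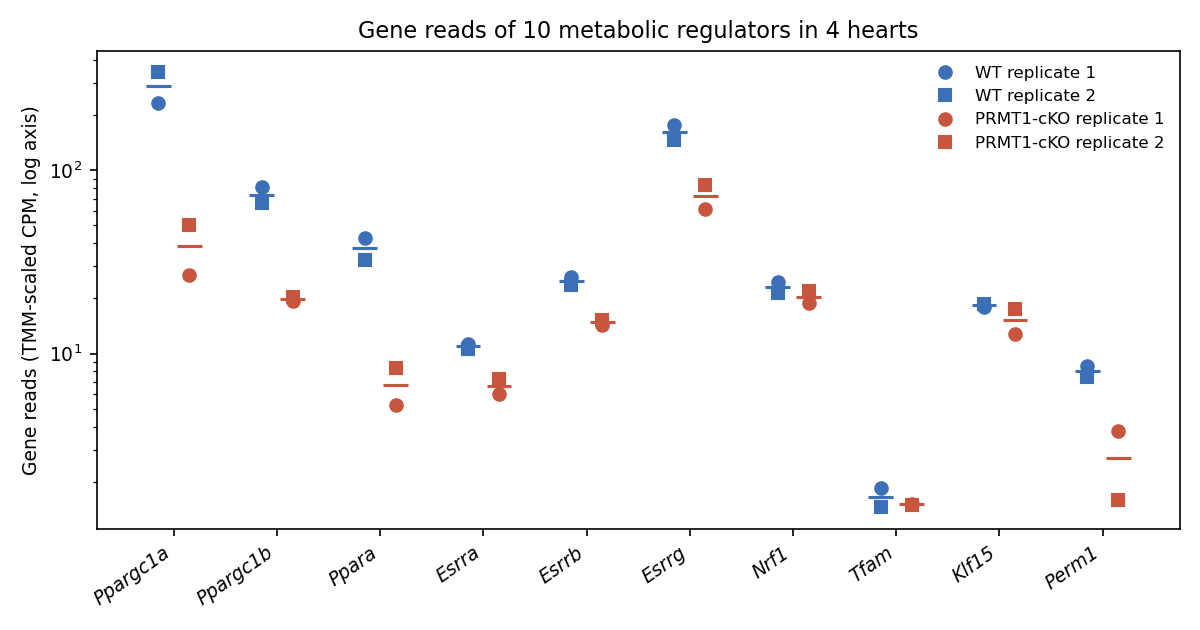
Gene reads of the 10 members in each heart, as TMM-scaled CPM on a log axis; circles are replicate 1, squares are replicate 2, and bars are group means (n = 2). The PRMT1-cKO values of Ppargc1a, 26.9 and 50.3 CPM, sit far below the WT values of 231 and 340.4 CPM, while those of Nrf1 and Tfam overlap between the groups.

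Ppargc1a, which encodes PGC-1α, spans chromosome 5 from 51454249 to 51567725 on the minus strand of GRCm38. Its gene reads were 231 and 340.4 CPM in WT replicates 1 and 2 and 26.9 and 50.3 CPM in PRMT1-cKO replicates 1 and 2, or 5207, 5821, 548 and 1202 reads. Both PRMT1-cKO hearts were far below both WT hearts, and PRMT1-cKO replicate 2 was the higher of its group. The log2 change was -2.89 ± 0.32 (SE, n = 2 per group; edgeR adjusted p = 1.92e-06), which placed it at rank 74 from the bottom among the 13869 genes tested. Leaving out each heart in turn gave log2 changes between -3.43 and -2.54, and the call was kept each time. Exon reads were few, with 38 and 36 in WT, against 10 and 13 in PRMT1-cKO, with a log2 change of -1.93 ± 0.39 that passed (edgeR adjusted p = 0.00107). Spliced reads of Ppargc1a were thus fewer in both PRMT1-cKO hearts as well, although over the 4 libraries only 0.759% of its gene reads were exon reads. GENCODE M21 places 4 provisional gene models inside the span, 3 of them on the same strand, and whether the counting took strand into account is not given.

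Ppargc1b, which encodes PGC-1β, lies on chromosome 18 from 61298136 to 61400431 on the minus strand. It had 80.9 and 66.2 CPM of gene reads in WT, against 19.3 and 20.3 CPM in PRMT1-cKO. The groups were well apart and each was tight. The log2 change was -1.89 ± 0.22 (SE, n = 2 per group; edgeR adjusted p = 3.78e-06), and it was kept without any one heart, between -2.05 and -1.75. Its exon reads were 2, 4, 0 and 3 and were not tested, so the fall rests on reads that cross no junction. Of the intron reads per kilobase outside exons that the coactivator pair took together, Ppargc1a had 72.3 and 82.5% in WT, against 55.7 and 69.4% in PRMT1-cKO, so the share of Ppargc1b was larger in both PRMT1-cKO hearts than in either WT heart. The share itself was not tested.

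Ppara encodes the receptor that fatty acids activate and spans chromosome 15 from 85734983 to 85802819 on the plus strand. Gene reads were 42.8 and 32.5 CPM in WT, against 5.25 and 8.32 CPM in PRMT1-cKO. Both PRMT1-cKO hearts were far below the lower WT heart. The fall was 5.52-fold, a log2 change of -2.46 ± 0.24 (SE, n = 2 per group; edgeR adjusted p = 4.00e-07), and it held without any one heart (-2.86 to -2.21). No other annotated gene overlaps Ppara. Exon reads numbered 15 and 9 in WT, against 1 and 6 in PRMT1-cKO, a log2 change of -1.98 ± 0.67 (edgeR adjusted p = 0.0313). This exon call was lost with DESeq2 (adjusted p = 0.193), with a replicate block (0.0728), and on leaving out WT replicate 1 (0.412), WT replicate 2 (0.133) or else PRMT1-cKO replicate 1 (0.340).

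The estrogen-related receptor genes fell by 2.23-fold (Esrrg), 1.68-fold (Esrrb) and 1.64-fold (Esrra) in gene reads, and the difference from the larger falls of Ppargc1a and Ppara was not tested. Esrra encodes ERRα, the form most tied to PGC-1 in muscle, and spans chromosome 19 from 6910977 to 6921813 on the minus strand. Its exon reads were 69 and 58 in WT, against 32 and 30 in PRMT1-cKO, or 112 and 108 against 43.2 and 46.9 CPM. The spread within each group was small beside the distance between them. Exon reads fell by 1.28 ± 0.27 on the log2 scale (SE, n = 2 per group; edgeR adjusted p = 0.00135), and this held without any one heart (-1.33 to -1.21). Gene reads of Esrra were 11.3 and 10.6 CPM in WT, against 6.04 and 7.28 CPM in PRMT1-cKO, and they fell by 0.72 ± 0.20 (edgeR adjusted p = 0.0138). The gene-read call was lost with DESeq2 (adjusted p = 0.0524) and without WT replicate 1 (0.143) or WT replicate 2 (0.0647). Intron reads of Esrra did not pass (log2 change -0.56, edgeR adjusted p = 0.0540), but did without PRMT1-cKO replicate 2 (0.0101). The gene overlaps Trmt112 on the opposite strand, which had 0, 1, 1 and 0 gene reads.

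Esrrb encodes ERRβ and spans chromosome 12 from 86361117 to 86521628 on the plus strand. It had 26.3 and 23.6 CPM of gene reads in WT, against 14.4 and 15.3 CPM in PRMT1-cKO, a log2 change of -0.75 ± 0.19 (SE, n = 2 per group; edgeR adjusted p = 0.00748). The groups did not overlap, but the call was lost without WT replicate 1 (adjusted p = 0.175) or WT replicate 2 (0.0518). Intron reads of Esrrb were called lower too (edgeR adjusted p = 0.00422), and that call ended without WT replicate 1 (0.111). Exon reads of Esrrb were 1, 0, 2 and 0, so spliced RNA of this receptor was at or under the limit of 3 reads in every library.

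Esrrg encodes ERRγ, a form abundant in the postnatal heart, and is the longest member, on chromosome 1 from 187608791 to 188214885 on the plus strand. Gene reads were 176 and 145 CPM in WT, against 61.7 and 82.6 CPM in PRMT1-cKO. All PRMT1-cKO values were lower, and the log2 change was -1.16 ± 0.25 (SE, n = 2 per group; edgeR adjusted p = 0.00188), a call lost without WT replicate 1 (adjusted p = 0.0779). Its exon reads went the other way, with 0 and 4 in WT, against 11 and 6 in PRMT1-cKO. They were too few for the read filter, and without that filter the exon log2 change was 1.74 with an edgeR adjusted p of 0.198. So the intron reads fell while the few junction reads were higher in both PRMT1-cKO hearts, a difference for which the exon-against-intron test below had too few reads with all hearts in. GENCODE M21 lists 4 other genes inside the Esrrg span, 3 of them on the opposite strand. Of the intron reads per kilobase outside exons of the receptors together, Esrrg had 20.2 and 19.1% in WT, against 13.9 and 14.3% in PRMT1-cKO, and Esrra 68.1 and 68.9% against 73.5 and 75.5%.

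Nrf1 and Tfam, which stand between the coactivators and mitochondrial DNA, did not pass the test. Nrf1 (chromosome 6, 30047988 to 30153458, plus strand) had 24.7 and 21.5 CPM of gene reads in WT, against 18.8 and 21.9 CPM in PRMT1-cKO. The values overlapped, and the log2 change was -0.18 ± 0.20 (SE, n = 2 per group; edgeR adjusted p = 0.577). Its only exon read was in WT replicate 1, so spliced Nrf1 RNA could not be judged. Tfam (chromosome 10, 71225464 to 71238280, minus strand) was the member with the fewest gene reads, 42 and 25 in WT, against 31 and 36 in PRMT1-cKO. Its log2 change was -0.15 ± 0.32 (edgeR adjusted p = 0.808), with exon reads of 7, 2, 13 and 4 that were too few to test. With so few reads and a standard error of 0.32, changes of Tfam well above that error could also have missed the threshold.

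Klf15 (chromosome 6, 90462576 to 90475238, plus strand) had 17.9 and 18.7 CPM of gene reads in WT, against 12.9 and 17.6 CPM in PRMT1-cKO. PRMT1-cKO replicate 2 lay close to the WT hearts and replicate 1 below them. The log2 change was -0.26 ± 0.20 (SE, n = 2 per group; edgeR adjusted p = 0.409), and it was -0.53 with an adjusted p of 0.0417 without PRMT1-cKO replicate 2. Exon reads were 1, 2, 0 and 2.

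Perm1 (chromosome 4, 156215868 to 156221307, plus strand) was the member with the largest share of exon reads. It had 151 and 89 exon reads in WT, against 50 and 15 in PRMT1-cKO, or 244 and 166 against 67.6 and 23.4 CPM. Both groups were wide, but they did not overlap. Exon reads fell by 2.14 ± 0.33 on the log2 scale (SE, n = 2 per group; edgeR adjusted p = 1.15e-04), with log2 changes of -3.11 without PRMT1-cKO replicate 1 and -1.58 without replicate 2 of that group. In gene reads the values were 8.55 and 7.48 CPM in WT, against 3.78 and 1.59 CPM in PRMT1-cKO, and the log2 change was -1.60 ± 0.29 (edgeR adjusted p = 3.61e-04), or -2.36 and -1.11 without PRMT1-cKO replicates 1 and 2. Intron reads of Perm1, 42 and 39 in WT, against 27 and 23 in PRMT1-cKO, did not pass (log2 change -0.85, edgeR adjusted p = 0.0726), but did without PRMT1-cKO replicate 1 (0.0256).

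**Figure D2:**
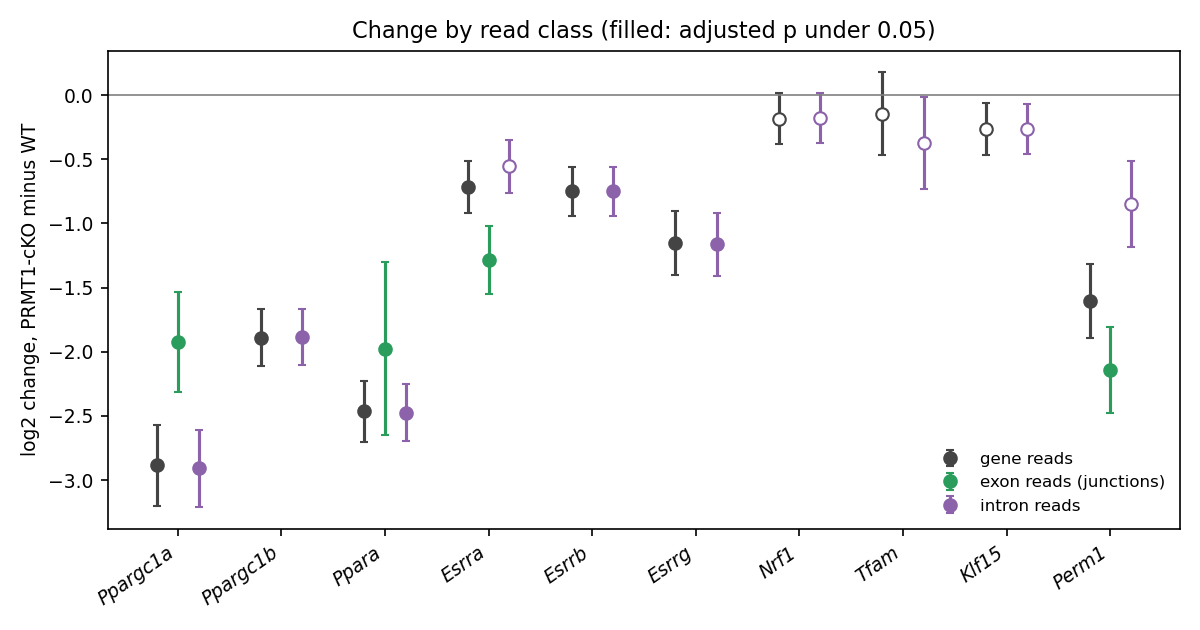
Log2 change (PRMT1-cKO minus WT) of each member in gene, exon and intron reads, with bars of 1 standard error (n = 2 per group); filled points have an edgeR adjusted p under 0.05. Exon reads of Esrra and Perm1, at -1.28 and -2.14, lie below their intron reads at -0.56 and -0.85, and exon reads of Ppargc1a at -1.93 lie above its intron reads at -2.91.

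Exon reads of only 4 members had enough reads to test, Ppargc1a, Ppara, Esrra and Perm1, and all 4 were lower in PRMT1-cKO. In exon reads 4756 genes were tested, and 18.7% of them were lower by the same rule. The groups did not overlap in these 4, against 34.2% of all genes with both PRMT1-cKO values below both WT values. A member passed the read filter only where a group had reads enough, so this count speaks for those 4 genes alone. In intron reads 5 of 10 members were lower (Ppargc1a, Ppargc1b, Ppara, Esrrb and Esrrg) and 0 higher by edgeR (0 at an unadjusted p under 0.05 and 0 with DESeq2), where 11.0% of 13217 genes were lower. Both PRMT1-cKO values of intron reads lay below both WT values for all 10 members, which was so for 28.8% of genes.

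Whether exon and intron reads of a gene moved differently was tested directly with diffSpliceDGE. Of 4196 genes with enough reads in both classes, 3.88% passed, and the median exon minus intron log2 difference over all of them was 0.18. That median turned to -0.10 without PRMT1-cKO replicate 1 and was 0.49 without replicate 2 of that group, 0.06 without WT replicate 1 and 0.32 without WT replicate 2. Ppargc1a, Esrra and Perm1 could be tested and none passed (edgeR adjusted p = 0.477 for Ppargc1a, 1.0 for Esrra and 0.627 for Perm1). The log2 difference was 1.03 for Ppargc1a, -0.64 for Esrra and -1.15 for Perm1. Without PRMT1-cKO replicate 1 it was -0.99 for Esrra and -2.15 for Perm1, and without PRMT1-cKO replicate 2 it was -0.24 for Esrra and -0.65 for Perm1. Esrrg entered only when a heart was left out, and never without PRMT1-cKO replicate 1, which held 11 of its exon reads. Its log2 difference was 1.72 without WT replicate 1, 7.45 without WT replicate 2 and 3.72 without PRMT1-cKO replicate 2. The only WT count of exon reads was 0 without WT replicate 2. Esrrg thus met the read filter only through the group where its exon reads were high, and no result is drawn from these refits. A p that misses the threshold does not show that exon and intron reads moved alike.

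Levels can be set against each other between genes only per length. Exon reads almost all cross a junction and so need not scale with exon length, and no order was read from them. On the scale of intron-read CPM per kilobase of sequence outside exons, which says nothing of spliced RNA, in WT Ppargc1a was highest at 2.74 ± 0.791 and Klf15 next at 1.85 ± 0.0762, followed by Perm1, Esrra, Ppargc1b and Ppara, with each apart from the next lower gene. Esrrg and Nrf1 overlapped in WT, as did Tfam and Esrrb, which were lowest. In PRMT1-cKO, Klf15 was highest at 1.54 ± 0.258 and Ppargc1a stood at place 4 with 0.365 ± 0.141 (SD, n = 2 each). Ppargc1a was thus above Klf15 in both WT hearts and below it in both PRMT1-cKO hearts.

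**Figure D3:**
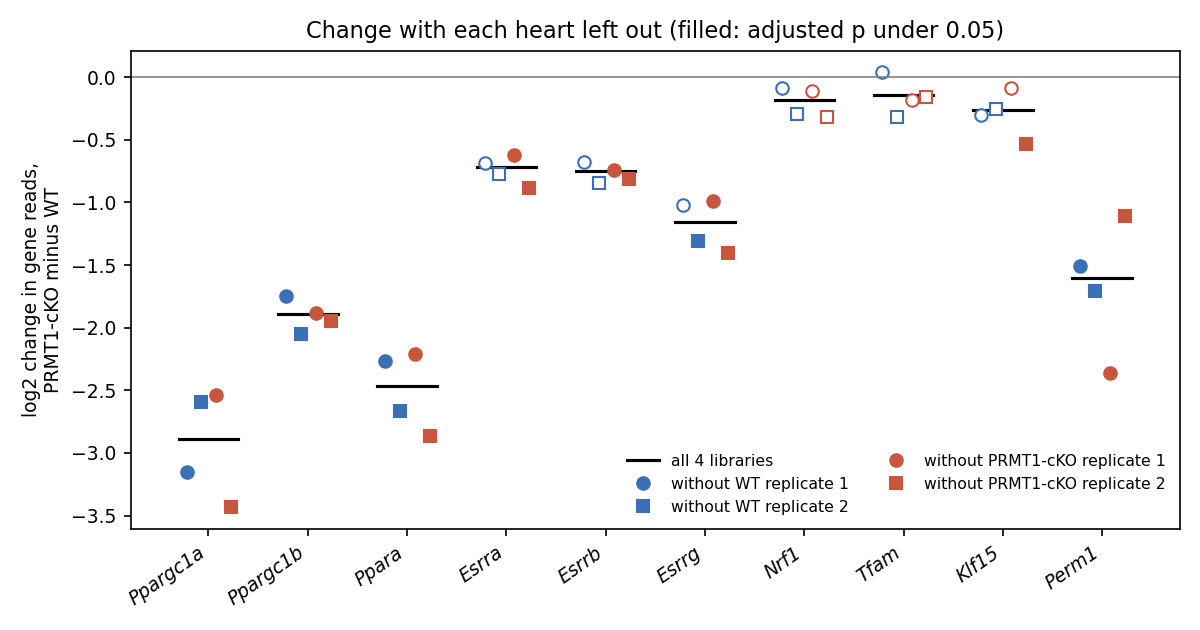
Log2 change in gene reads of each member with all 4 hearts (bar) and with each heart left out (points); filled points have an edgeR adjusted p under 0.05. Ppargc1a, Ppargc1b, Ppara and Perm1 kept the call in all 4 refits, while Esrrg lost it in 1 and Esrra and Esrrb in 2.

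By the authors' deposited table, the signed fold change of Ppargc1a was -7.40, that of Ppara -5.54, of Ppargc1b -3.72 and of Perm1 -3.03. In the authors' deposited table Esrrg had -2.23, Esrrb -1.69 and Esrra -1.65 with corrected p-values of 2.03e-05, 0.00705 and 0.0322. The authors' deposited table gives a corrected p-value of 1 for Nrf1, Tfam and Klf15. The same 7 genes thus lay under 0.05 there.

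The genes whose gene reads were most like Ppargc1a over the 4 libraries were found among 5464 genes with a mean of at least 5 CPM, as the smallest distance between centred log2 CPM values. They were Slc38a3, a glutamine transporter gene, at a distance of 0.438, Atcayos, a transcript opposite Atcay, at 0.476, the kinase gene Wnk2 at 0.566, Asb11, of a ubiquitin ligase family, at 0.610 and the thiolase gene Acaa2 at 0.687. Slc38a3 had 10.9 and 11.1 CPM in WT, against 1.13 and 1.76 CPM in PRMT1-cKO. Like Ppargc1a, Slc38a3 was lowest in PRMT1-cKO replicate 1 and highest in WT replicate 2. Among the other members Ppara was closest at rank 11 with a distance of 0.832, and Ppargc1b stood at rank 70. With 4 libraries this likeness is a description only.

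Genes that work with the members were lower about as often as all genes, of which 11.2% were. Of 22 partner and corepressor genes 3 were lower and 0 higher by edgeR, with a median log2 change of -0.24 (0 higher also at an unadjusted p under 0.05 and with DESeq2). Rxrg, a retinoid X receptor gene whose products pair with PPARα, had 6.02 and 4.85 CPM in WT, against 1.18 and 1.42 CPM in PRMT1-cKO, a log2 change of -2.06 ± 0.27 (adjusted p = 1.49e-05 in edgeR). Lpin1, a lipid phosphatase gene whose product also binds PGC-1α and PPARα, fell from 31.4 and 32.3 to 9.86 and 10.5 CPM in gene reads. Its exon reads, 30 and 35 in WT, against 36 and 12 in PRMT1-cKO, overlapped and did not pass (log2 change -0.72 ± 0.41, edgeR adjusted p = 0.190). Ppard, the PPARδ gene, fell from 15.3 and 12.7 to 7.51 and 8.87 CPM and had 0 exon reads in every library. Ppard no longer passed when WT replicate 1 was left out (adjusted p = 0.178 in edgeR). Rxra, the main retinoid X receptor gene of the heart, had a log2 change of -0.23 ± 0.20 and did not pass, and neither did Gabpa (-0.39 ± 0.20) or Mef2d (-0.54 ± 0.20). Without PRMT1-cKO replicate 2 the count was 6 lower.

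Of 17 upstream regulators, again a share near that of all genes, 2 were lower and 0 higher by edgeR (0 higher at an unadjusted p under 0.05 and 0 with DESeq2), with a median log2 change of -0.28. Sirt1, a deacetylase that acts on PGC-1α, had 7.88 and 12.4 CPM in WT, against 5.10 and 6.44 CPM in PRMT1-cKO (log2 change -0.80 ± 0.23, edgeR adjusted p = 0.0173). Its exon reads were 2, 0, 4 and 0 and were not tested. Smyd1, a muscle methyltransferase that acts on Ppargc1a in the mouse heart, had 34.8 and 25.8 against 19.1 and 19.4 CPM (log2 change -0.66 ± 0.21, adjusted p = 0.0256). Both calls in gene reads depended on single hearts, since Sirt1 no longer passed with WT replicate 2 left out (adjusted p = 0.381 in edgeR), nor Smyd1 without WT replicate 1 (0.505) or WT replicate 2 (0.0524). Exon reads of Smyd1, 75 and 52 in WT, against 42 and 23 in PRMT1-cKO, changed by -1.22 ± 0.29 (edgeR adjusted p = 0.00374) and passed with each heart left out. The list's count was 1 without WT replicate 1, 0 without WT replicate 2 and 4 without PRMT1-cKO replicate 2. Prkaa2, the muscle catalytic subunit of AMP-activated kinase, had a log2 change of -0.55 ± 0.20 and did not pass, and Creb1 had -0.15 ± 0.21.

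Among 22 other nuclear receptor genes 7 were lower and 1 higher, with a median log2 change of -0.12, and DESeq2 called 6 lower and 0 higher. The shares over all genes tested were 11.2% lower and 11.5% higher in edgeR. Nr3c2, the mineralocorticoid receptor gene, went from 158 and 78.6 CPM in WT to 28.7 and 43.4 CPM in PRMT1-cKO (log2 change -1.72 ± 0.30, edgeR adjusted p = 2.64e-04). The WT hearts differed by more than the distance from the lower WT to the higher PRMT1-cKO heart. Nr4a1 fell by 1.62 ± 0.30, with exon reads of 36 and 25 in WT, against 9 and 8 in PRMT1-cKO that fell as well. Rora fell by 1.17 ± 0.27 and the thyroid hormone receptor gene Thrb by 0.94 ± 0.27, while the estrogen receptor gene Esr1 rose by 0.73 ± 0.20 from 6.64 and 5.79 to 10.8 and 9.87 CPM. Exon reads of Nr3c2, Rora, Thrb and Esr1 were too few to test. Without WT replicate 1 the calls of Rora (edgeR adjusted p = 0.115), Thrb (0.291) and Esr1 (0.0902) were lost, that of Esr1 also without WT replicate 2 (0.218), and the list had 2 lower and 0 higher.

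Of 16 genes that copy, maintain or transcribe mitochondrial DNA, 3 were lower and 1 higher, with a median log2 change of -0.33, and DESeq2 called 1 lower and 1 higher. Over all genes tested, edgeR called 11.2% lower and 11.5% higher. Peo1, the mitochondrial helicase gene, had 2.17 and 1.64 CPM in WT, against 0.785 and 0.753 CPM in PRMT1-cKO, and its log2 change was -1.31 ± 0.36. Tfb1m, which methylates mitochondrial ribosomal RNA, changed by -0.84 ± 0.25 and Dguok, a nucleoside kinase gene, by -0.84 ± 0.22. Lonp1, the protease that degrades TFAM, rose by 0.77 ± 0.23 in gene reads and by 0.67 ± 0.12 in exon reads, where it had 605 and 527 reads in WT, against 1206 and 947 in PRMT1-cKO. The calls in gene reads were lost without WT replicate 1 for Peo1 (edgeR adjusted p = 0.190), Tfb1m (0.328), Dguok (0.101) and Lonp1 (0.314), and 1 gene of the list was lower then; Lonp1 was also lost without WT replicate 2 (0.151) or PRMT1-cKO replicate 1 (0.0980). Exon reads of Lonp1 kept the call without WT replicate 1 (edgeR adjusted p = 0.0120).

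Known targets of PPARα were lower in most exon-read tests, but the classes of reads differed. Of 25 tested in gene reads 12 were lower, 3 higher and 10 did not pass, with a median log2 change of -1.11; in exon reads 17 of 21 were lower and 1 higher. In intron reads 5 of 24 were lower and 5 higher, with a median log2 change of -0.09. Of all genes tested 11.2% were lower in gene reads, 18.7% in exon reads and 11.0% in intron reads. The shares higher were 11.5% in gene reads, 17.6% in exon reads and 10.8% in intron reads. The count of targets higher in gene reads was near that share, and the count higher in exon reads was under it. Acaa2, the last enzyme of mitochondrial fatty acid oxidation, had 2993 and 2689 exon reads in WT, against 315 and 349 in PRMT1-cKO, a fall of 3.34 ± 0.14 on the log2 scale (edgeR adjusted p = 6.97e-11). Eci1, an isomerase for unsaturated fatty acids, fell by 3.22 ± 0.15 in exon reads, and Lpl, the lipase that frees fatty acids from lipoproteins, by 2.36 ± 0.23. Gene reads of Cpt1b, the carnitine transferase that admits fatty acids to mitochondria, changed by -1.37 ± 0.20.

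Angptl4 and Plin2 were among the targets that rose. Angptl4, an inhibitor of LPL, had 15 and 10 gene reads in WT, against 45 and 85 in PRMT1-cKO, a log2 change of 2.20 ± 0.37 (adjusted p = 1.64e-04 in edgeR). The lipid droplet gene Plin2 rose by 0.57 ± 0.20 (edgeR adjusted p = 0.0439), a call that leaving out WT replicate 1 (0.420), WT replicate 2 (0.209) or else PRMT1-cKO replicate 1 (0.106) ended. Pdk4 and Cd36, also targets of PPARα, did not pass, with log2 changes of -0.26 ± 0.30 and -0.64 ± 0.29.

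Targets of ERR and PGC-1, a mixed list of citric acid cycle, respiratory chain and other mitochondrial and muscle genes, were lower in 15 of 18 cases and higher in 0 by edgeR (0 at an unadjusted p under 0.05 and 0 with DESeq2), with a median log2 change of -1.13 in gene reads. In exon reads 14 of 14 were lower. The shares of all genes tested that were lower were 11.2% in gene reads and 18.7% in exon reads. Ckmt2, the mitochondrial creatine kinase of heart muscle, had 6925 and 5897 exon reads in WT, against 2143 and 1815 in PRMT1-cKO, a fall of 1.95 ± 0.11 on the log2 scale (edgeR adjusted p = 1.19e-09). Slc25a4, the ADP/ATP carrier of muscle, fell by 1.66 ± 0.14 in exon reads and Sdhb, a subunit of succinate dehydrogenase, by 1.73 ± 0.14. The myoglobin gene Mb fell by 2.67 ± 0.21 in gene reads but had 7, 3, 5 and 0 exon reads, and nearly all of the reads behind this fall cross no junction. Atp5b, Cycs and Mfn2 did not pass. The count of lower genes was 10 without WT replicate 1 and 10 without WT replicate 2.

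Targets of KLF15 were lower in 5 of 7 cases and higher in 0 by edgeR (0 at an unadjusted p under 0.05 and 0 with DESeq2), with a median log2 change of -1.46, although Klf15 itself did not pass. Among all genes tested in gene reads 11.2% were lower. Gpt, an alanine transaminase, had 113 and 97 exon reads in WT, against 12 and 7 in PRMT1-cKO, a fall of 3.71 ± 0.30 on the log2 scale (edgeR adjusted p = 1.22e-07). The insulin-responsive glucose transporter gene Slc2a4 went from 50 and 47 to 12 and 8 gene reads, and Prodh, of proline breakdown, from 150 and 146 to 48 and 51. Exon reads were 0, 2, 0 and 1 for Slc2a4 and 0 in every library for Prodh, so both falls rest on reads that cross no junction. Kcnip2, a potassium channel subunit that KLF15 controls in mouse heart, fell by 1.46 ± 0.24. Bcat2 and Bckdhb, of branched-chain amino acid breakdown, had log2 changes of -0.25 ± 0.36 and -0.28 ± 0.21 and did not pass.

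**Figure D4:**
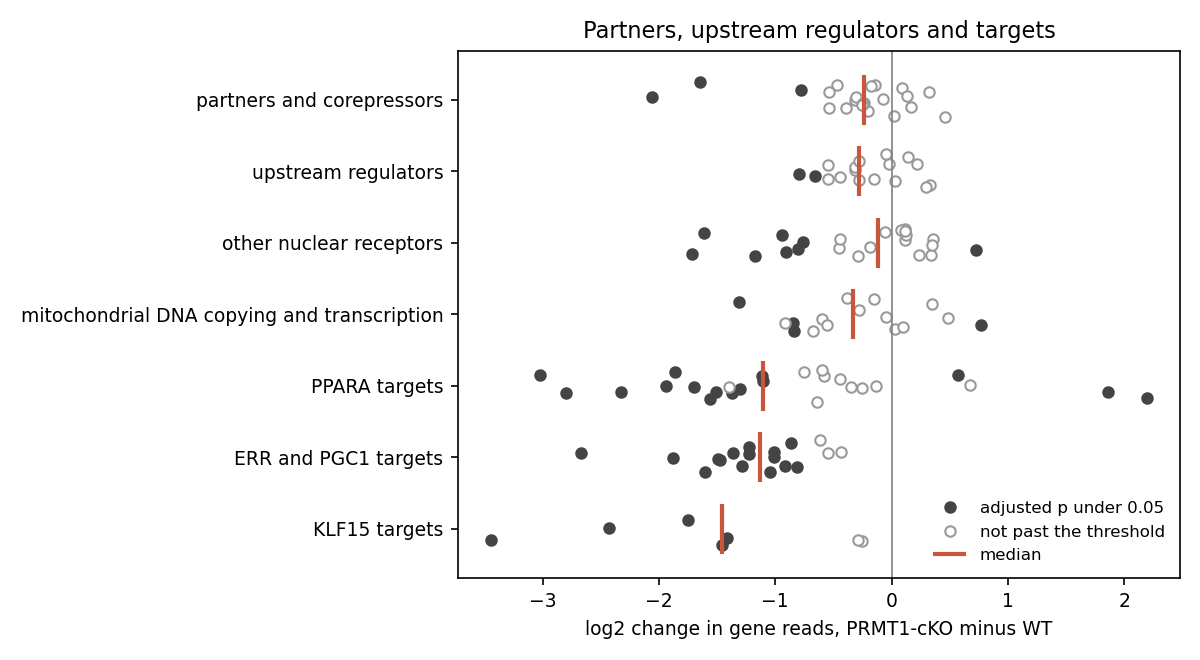
Log2 change (PRMT1-cKO minus WT) in gene reads of every tested gene of 7 lists; filled points have an edgeR adjusted p under 0.05 and the red line is the list's median. Medians run from -0.12 for other nuclear receptors to -1.46 for KLF15 targets, against 0.01 over all genes.

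Markers of some cell types also differed between the groups. Over all genes tested, 11.2% were lower and 11.5% higher in gene reads. The shares lower were 18.7% in exon reads and 11.0% in intron reads. Of 8 cardiomyocyte markers 7 were lower in PRMT1-cKO, and their summed gene reads were 5054 and 4682 CPM in WT, against 1653 and 2559 CPM in PRMT1-cKO; 4 were lower without WT replicate 2. In exon reads 6 of 7 cardiomyocyte markers tested were lower, and in intron reads 6 of 7. Tnnt2, lower in gene reads, had 233 and 235 CPM of exon reads in WT, against 274 and 333 CPM in PRMT1-cKO. That exon difference did not pass (log2 change 0.37 ± 0.17, edgeR adjusted p = 0.100). Fibroblast markers were higher in 6 of 7 cases (338 and 428 against 938 and 592 CPM) and macrophage and leukocyte markers in 7 of 7 (49.8 and 56.5 against 144 and 123 CPM). Endothelial markers summed to 243 and 249 CPM in WT, against 200.3 and 204 CPM in PRMT1-cKO with 1 of 6 lower. Mural cell markers summed to 177 and 199.9 against 121 and 116 CPM with 1 of 6 lower in gene reads. In exon reads 4 of 6 mural markers were lower, and in intron reads 4 of 6. Fat markers, of tissues that also express PGC-1α, summed to 9.74 and 12.5 CPM in WT, against 14.9 and 9.58 CPM in PRMT1-cKO, so their totals overlapped. Among the 6 fat markers tested 1 was lower, Ucp1 (70 and 47 gene reads in WT, against 3 and 11), 1 was higher, Cfd (42 and 57, against 194 and 73), and the median log2 change was 0.55. In CPM of gene reads the groups of Cfd overlapped, with 1.86 and 3.33 in WT, against 9.52 and 3.05 in PRMT1-cKO. Skeletal muscle markers stayed under 1 CPM in sum in every library. The part of these shifts in the results above was not tested. In whole hearts, fewer cardiomyocytes and less RNA per cardiomyocyte cannot be told apart.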

How the data were processed

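The labels' protocols name ISOGEN II extraction, RiboMinus depletion and SOLiD libraries of total RNA. Reads were placed on GRCm38, per the submitters' processing notes; aligner, counting program and use of strand are not given here. The deposited counts are gene, exon and intron reads per gene. The deposited RPKM values scale exon reads by exon length and gene reads and were not tested. The authors' signed fold score and corrected p-value come from an EDGE test, per the file headers.

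Each class of counts was tested with edgeR 4.0.16 in R 4.3.3, using TMM, filterByExpr (minimum count 10, minimum total 15) and the two-sided quasi-likelihood test of genotype, with Benjamini-Hochberg adjustment and a threshold of 0.05. CPM are scaled by TMM. The standard error is the size of the log2 change over the root of the F statistic. For exon against intron reads, diffSpliceDGE with Simes p-values was used. Alternatives were DESeq2 1.42.0, other scaling and filters, a replicate block and leaving out each heart. Scripts were tested on simulated data. The members, the lists and the rule for named genes (all members; per list up to 4 genes with the largest change among those past the threshold with groups apart, and up to 2 in the opposite direction; the 5 genes most like Ppargc1a) were chosen with earlier results of these data known. Plin2, Cpt1b and list genes that did not pass were named after their values were seen. Promoter windows are those of RefSeq; that of Ppargc1b is not reported here. Some genes that the rule would name are not reported here.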

Additional observations from a re-analysis of the deposited data

How the results depend on the processing

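Of 226 alternative log2 changes of the members, 208 kept their direction and side of the threshold, 12 lost the call, 5 gained it (2 of them, intron reads of Esrra and Perm1, under the crossed pairing) and 1 reversed; the others stand beside their results. Tfam gene reads, not called, had log2 changes from -0.3161 without WT replicate 2 to 0.03681 without WT replicate 1, where the direction turned. DESeq2 called fewer genes, with 1047 higher in gene reads, 1096 in exon reads (520 higher and 576 lower) and 1783 in intron reads (835 higher and 948 lower), against 1601, 1723 (835 and 888) and 2886 (1429 and 1457) in edgeR; the cause was not tested. Leaving out each heart gave 1815 to 3664 genes called in gene reads (main 3154), 856 to 1769 higher and 959 to 1895 lower. It gave 1265 to 1704 in exon reads, 607 to 860 higher and 658 to 844 lower, and 1632 to 3036 in intron reads, 765 to 1391 higher and 867 to 1645 lower. Members lower numbered 4 to 8 in gene reads, 3 to 4 in exon reads and 4 to 6 in intron reads, and members higher 0 throughout. For exon against intron reads the count of 163 genes ranged from 25 to 274, with 25 without WT replicate 1 and 29 without WT replicate 2. The lone heart of an arm was assumed to vary like the other group.

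The labels state no pairing of same-numbered hearts, and deviations of same-numbered hearts correlated at -0.12 across genes. Whether such hearts shared a batch was not tested. With the replicate block 2806 genes were called in gene reads, 1583 in exon reads and 2561 in intron reads, and 68 in exon against intron reads. With the crossed pairing, chosen after seeing the data, the counts were 4329, 1804 and 3702. Exon reads of Ppargc1b, Esrrb, Esrrg, Nrf1, Tfam and Klf15 were too few to test; whether depth or the counting limits them was not tested.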
